A study of Saccharomyces cerevisiae with 24 samples.

Results

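The transcripts of glycolysis and of the branches that lead from it to ethanol, glycerol, acetate and butanediol were followed in budding yeast strains with different actin genes. The set holds 35 genes, taken by name from a list of glycolytic enzymes, pyruvate decarboxylases, alcohol, aldehyde and butanediol dehydrogenases, glycerol enzymes and their regulators, all of them off chromosomes VI and XIII. All 35 were found among the 5843 entries of the haploid table and among the 5730 entries of the diploid table, and all 35 passed the filter on low values in both.

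In yeast growing on glucose, hexose kinases trap the sugar as a phosphate, and the glycolytic enzymes split it and convert it to pyruvate. Pyruvate decarboxylase and alcohol dehydrogenase then turn pyruvate to ethanol and recover the NAD+ that glycolysis uses. Glycerol formation is another outlet for NADH and gives the cell its main osmolyte, while aldehyde dehydrogenases take acetaldehyde to acetate. The genes of the main pathway are among the most strongly transcribed of this organism and depend on the activators Gcr1, Gcr2, Tye7 and Rap1.

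Poly(A) RNA was sequenced from 8 Saccharomyces cerevisiae strains, 3 libraries each, grown to log phase at 25 °C in rich medium with 2% dextrose. The haploid strains were Ca, N2, Sc[At], Sc[Sp] and Sc[Ca], each with an introduced actin gene, and ScNI, the haploid wild type. The diploid strains were N2/Ca, whose columns in the table are headed N19_Ca, and, as their wild type, Sc/Sc. The strain names are used as labels only, and what a replicate is (a culture or a clone) is not stated in the labels, so p-values measure the spread between these samples. A haploid library held 10228523 to 15403081 reads and a diploid one 12128284 to 15134814. The authors scaled the tables of haploids and of diploids apart from each other, and no level is compared across them.

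The actin rows were read first, as a check of the labels. ACT1, the native actin gene, lay at 31.5 to 68.8 normalised counts in Sc[At], 9.43 to 31.6 in Sc[Sp] and 105 to 173 in Sc[Ca], 10443 to 15183 in N2 and 8638 to 15314 in Ca, against 18397 to 18549 in ScNI, and 13048 to 15859 in N2/Ca, against 21885 to 26900.4 in Sc/Sc. The row of each introduced haploid actin was at 9703 or more in its own strain and at 365 or less in the others. Replicate 2 of every haploid strain carried the MATalpha pattern: the summed level of 4 MATalpha markers was 42261 to 92519 in these 6 libraries, against 687 to 1408 in the other 12, and that of 5 MATa markers was 639 to 1254 against 15697 to 28099.6. The strain means are balanced for mating type. Some libraries of N2, Ca and N2/Ca were raised over whole chromosomes. The median log2 difference from wild type was 0.50, 0.92 and 0.89 on chromosome VI and 0.51, 0.93 and 0.92 on XIII in N2 replicates 1, 2 and 3. In Ca it was 0.88, 0.86 and 0.05 on VI and 0.87, 0.89 and −0.01 on XIII, and chromosome XI, which carries FBA1 and GPM1, stood at 0.54 in replicate 1 of Ca. In N2/Ca, replicate 1 had medians of 0.41 on VI and 0.46 on XIII. The part of these chromosome shifts in the results was not tested beyond subtracting each chromosome's median, and that of mating type was not tested beyond leaving out the MATalpha libraries.

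Several steps are coded by near-identical genes, which limits how well their reads can be told apart. The first 90 coding bases of the TDH genes (glyceraldehyde-3-phosphate dehydrogenase) are shown with the bases that differ from TDH3 in capitals, from the R64 genome of RefSeq.
TDH1: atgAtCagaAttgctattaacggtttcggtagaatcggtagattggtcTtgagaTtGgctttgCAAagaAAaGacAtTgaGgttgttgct
TDH2: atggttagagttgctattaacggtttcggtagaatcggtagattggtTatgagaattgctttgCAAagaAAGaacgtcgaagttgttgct
TDH3: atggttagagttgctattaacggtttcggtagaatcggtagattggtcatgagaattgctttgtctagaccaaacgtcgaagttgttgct
TDH1 differs from TDH3 at 15 of these 90 bases and TDH2 at 7. Over the 999 coding bases, identity to TDH3 was 88.9% for TDH1 and 95.8% for TDH2. The share of 50-base words of the coding sequence that also occur elsewhere in the genome, which a read of 50 bases cannot place, was 15.7% for TDH1, 31.3% for TDH2 and 24.4% for TDH3. The enolase genes ENO1 and ENO2 begin with the same 90 bases and share 23.6% of their words, at 94.8% identity.
ENO1: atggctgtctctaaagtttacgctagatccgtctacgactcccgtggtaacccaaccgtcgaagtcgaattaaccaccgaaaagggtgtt
ENO2: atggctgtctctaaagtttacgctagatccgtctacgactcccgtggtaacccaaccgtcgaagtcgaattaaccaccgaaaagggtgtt
ADH1 shared 14.0% of its words and PDC1 and PDC5 0.974% each, and the other 27 members shared none. GLK1 overlaps the open reading frame YCL042W on the same strand. No source used here says how such reads were counted, so the split between TDH genes, between ENO genes and for ADH1 and GLK1 is uncertain.

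Short stretches upstream of 7 members whose values changed in several strains are shown next, each 5′ to 3′ on the strand of its gene and with motif matches in capitals, from R64. The motifs searched on both strands were the core of the Gcr1 site (CTTCC, or GGAAG on the other strand), the Rap1 site (CACCC, any 2 bases, then ACA), the E-box bound by Tye7 (CACGTG) and the stress element bound by Msn2 and Msn4 (AGGGG, or CCCCT). The windows are chrIV:556812-556882 for TPI1 and chrXI:164730-164785 for GPM1 on the minus strand, and on the plus strand chrIII:137286-137326 for PGK1, chrVII:1000437-1000477 for ENO1, chrX:338011-338051 for TDH1, chrXV:1039520-1039655 for ALD4 and chrXVI:431993-432038 for ALD6.
TPI1: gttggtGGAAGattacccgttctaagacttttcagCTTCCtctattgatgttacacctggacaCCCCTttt
PGK1: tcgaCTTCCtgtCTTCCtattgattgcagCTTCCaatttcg
GPM1: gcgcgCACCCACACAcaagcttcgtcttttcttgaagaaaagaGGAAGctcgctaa
ENO1: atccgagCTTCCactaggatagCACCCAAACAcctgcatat
TDH1: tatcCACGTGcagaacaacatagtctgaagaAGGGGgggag
ALD4: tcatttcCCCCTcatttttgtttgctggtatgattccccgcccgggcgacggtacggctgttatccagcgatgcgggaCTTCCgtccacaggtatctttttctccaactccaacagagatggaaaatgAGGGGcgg
ALD6: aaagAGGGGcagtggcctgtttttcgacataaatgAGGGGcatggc
The PGK1 stretch holds 3 Gcr1 cores and that of TPI1 holds 2 and a stress element, the GPM1 and ENO1 stretches each join a Gcr1 core to a Rap1 site, and that of TDH1 joins an E-box to a stress element. The stretch of ALD6 holds 2 stress elements, and that of ALD4 holds 2 with a Gcr1 core between them. In the 600 bases before the start codon, the Gcr1 core was found in 27 of 35 members, where 72.9% of 6005 yeast genes have it. The Rap1 site was found in 4 members (TDH3, GPM1, ENO1 and PFK27; 2.53% of genes), the E-box in 9 (7.23%) and the stress element in 21 (39.7%). A match is only a run of letters and was not tested as a binding site. Gcr1 cores overlap stress elements upstream of GPD1 and GPD2.

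Per coding length, the steps differed widely in level in the wild type ScNI. TDH3 was highest, at 212649.6 ± 1355 normalised counts per kilobase (mean ± SD, n = 3), followed by the aldolase gene FBA1 at 173037 ± 8066 and the phosphoglycerate mutase gene GPM1 at 142245 ± 7392. The next were ADH1 at 116719 ± 2006 and ENO2 at 114067 ± 882, which differed by little more than their spread. The lowest were PDC5 at 148 ± 7.27 and PDC6 at 19.8 ± 3.22, the minor pyruvate decarboxylase genes. The regulator GCR1, at 1018 ± 40.9, stood far below TDH3, FBA1, GPM1, ADH1 and ENO2 and above PDC5 and PDC6.

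The members took a smaller share of all reads in Ca, N2 and Sc[At] than in the wild type. They made up 9.49, 9.58 and 7.62% of the reads in Ca replicates 1, 2 and 3, 10.0, 9.23 and 9.21% in N2 and 10.1, 10.2 and 9.61% in Sc[At], against 11.8% or more in every ScNI library. In Sc[Sp] and Sc[Ca] the shares were 11.4, 11.9 and 11.1% and 11.8, 12.3 and 12.1%. All 9 libraries of Ca, N2 and Sc[At] thus lay below all 3 of ScNI, while those of Sc[Sp] and Sc[Ca] overlapped them. In the diploid table the share was 11.9, 11.5 and 11.0% in N2/Ca, against 13.1, 14.3 and 13.9% in Sc/Sc, again without overlap. With 3 libraries a side, an exact permutation test cannot go below 0.10, so these shares are given without one. In bulk RNA, fewer cells with a transcript and less of it per cell cannot be told apart, and every level here is relative to the other genes of its library.

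In Ca, 22 of the 35 members fell and 1 rose against ScNI at a limma adjusted p under 0.05, where 14.2% of the 5808 genes tested fell and 16.0% rose. The median log2 difference of the members was −0.49, while the medians over all genes lay between −0.02 and 0.00 in the haploid comparisons with ScNI. In N2, 16 members fell and 2 rose, where 12.6% of genes fell and 16.5% rose, and the median was −0.37. In Sc[At], 8 fell and 1 rose, where 6.82% fell and 8.44% rose, and the median was −0.33. Sc[Sp] had 2 that fell and 3 that rose, where 10.9% fell and 10.1% rose, a share of members no larger than among all genes, and its median was −0.04. In Sc[Ca] 0 of the 35 passed in limma, edgeR and DESeq2 alike, where 0.0172%, 0.0172% and 0.0344% of genes passed. An unadjusted p under 0.05 in limma was reached by 0 as well, and the share of all genes at that level was not computed. Over the 6 haploid strains, 26 of 35 members differed by the limma F test, where 60.6% of genes did. Chromosomes VI and XIII, raised in libraries of N2 and Ca, hold no member but count in the shares of all genes. The same ScNI libraries serve all 5 comparisons. The order of the strains depends on the samples in the fit: with the 6 libraries of each pair of strains alone, 20 members fell and 2 rose in N2 (31.1% of genes passed), 14 fell and 0 rose in Ca (12.8%), 11 fell and 4 rose in Sc[At] (19.7%), and 8 fell and 9 rose in Sc[Sp] (47.2%). With the 6 libraries of Sc[Ca] and ScNI alone, 1 fell and 6 rose in Sc[Ca] (16.6%).

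**Figure D1:**
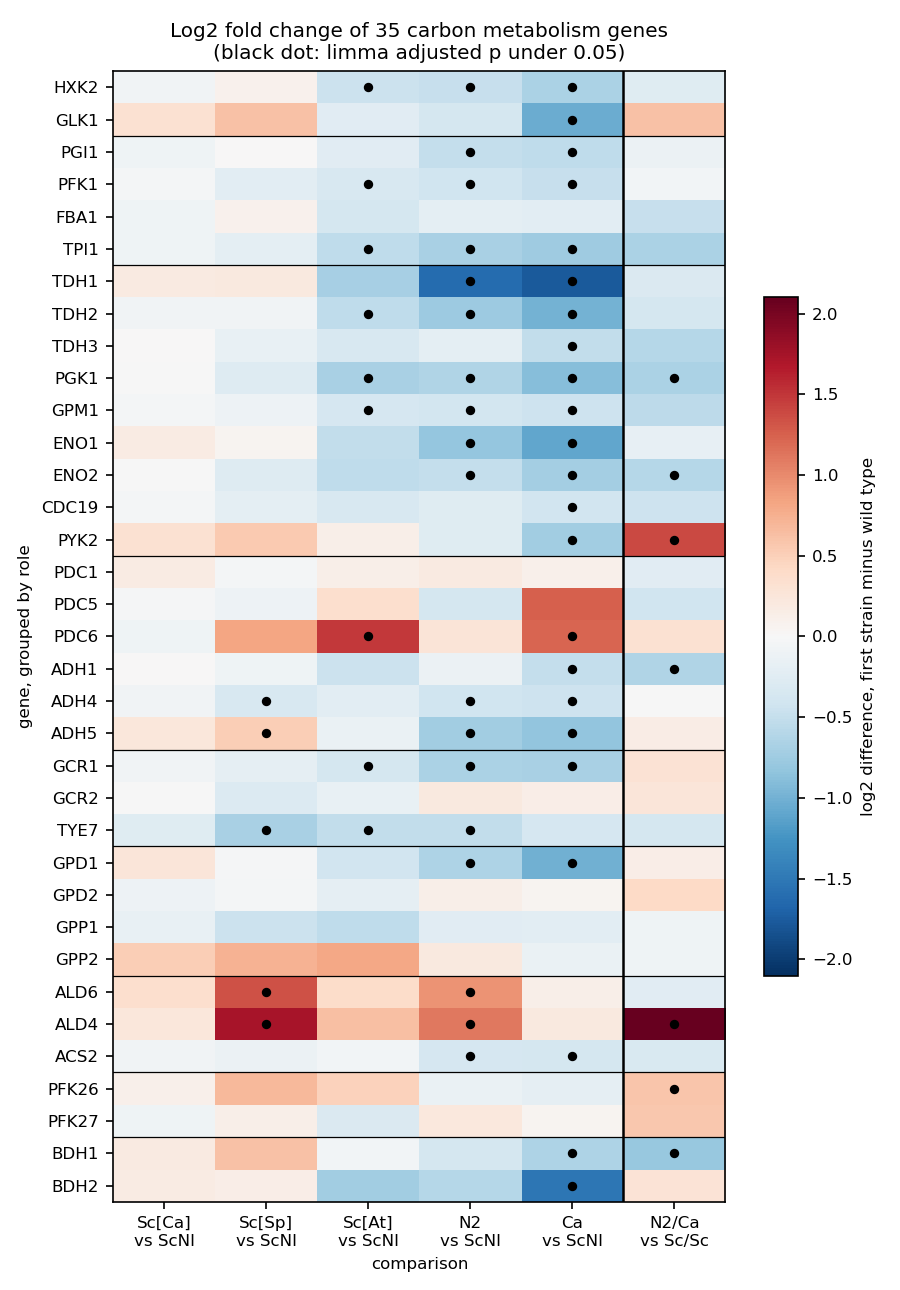
Log2 difference of each of the 35 members (rows, grouped by role) in each strain against its wild type (columns), with a black dot where limma's adjusted p was under 0.05. Dots on blue cells number 22 in Ca, 16 in N2 and 8 in Sc[At], most of them in glycolytic rows, while the ALD6 and ALD4 rows are red in Sc[Sp] and N2.

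At the first step, the phosphorylation of glucose, HXK2 (YGL253W), the main hexokinase gene on glucose, fell in Ca, N2 and Sc[At]. It stood at 19125, 21141 and 19366 normalised counts in Ca replicates 1, 2 and 3, 26752, 20483 and 20656 in N2 and 22535, 21090.2 and 25468 in Sc[At], against 31791, 31747 and 30683 in ScNI. All 9 libraries lay below the wild type, with log2 −0.66 in Ca (SE 0.10, limma adjusted p = 0.00050), −0.48 in N2 (0.0034) and −0.45 in Sc[At] (0.0096). It was 33611, 33286 and 33216 in Sc[Sp], above ScNI in each library, and did not pass there (log2 0.09). HXK1, the other hexokinase gene of the step, which lies on chromosome VI and is no member, was at 70726, 46177 and 45468 in N2 and 25225, 39975 and 10874 in Sc[At], against 14887, 15447 and 12329 in ScNI, so in N2 the hexokinase genes went opposite ways. The glucokinase gene GLK1 (YCL040W) was at 8996, 8817 and 8612 in Ca, 21669, 11534 and 11169 in N2 and 18203, 20199 and 9812 in Sc[At], against 18919, 18365 and 17134 in ScNI. It fell in Ca (log2 −1.04, SE 0.24, limma adjusted p = 0.0067), while N2 replicate 1 and Sc[At] replicates 1 and 2 lay within or above the wild-type values. In Sc[Sp] GLK1 was 28678, 29397 and 25265, above every ScNI library, with log2 0.61 and a limma adjusted p of 0.083.

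In upper glycolysis, which takes glucose 6-phosphate to triose phosphates, TPI1 (YDR050C) and PFK1 (YGR240C) fell in all of Ca, N2 and Sc[At]. TPI1, the triose phosphate isomerase gene, was at 34860.2, 38886 and 26823 in Ca, 38205, 32612 and 33381 in N2 and 39217, 39140.1 and 36636 in Sc[At], against 54482, 58425 and 54369.8 in ScNI. Its differences were log2 −0.75 in Ca (SE 0.13, limma adjusted p = 0.0011), −0.69 in N2 (0.0017) and −0.54 in Sc[At] (0.012), with no overlap in any. PFK1, the alpha subunit of phosphofructokinase, was at 16018, 15700.2 and 11953 in Ca, 14706, 15409.9 and 15412 in N2 and 16750.1, 15171 and 16332 in Sc[At], against 20114, 19748 and 20976 in ScNI (log2 −0.49, −0.42 and −0.34 in that order of strains). PGI1 (YBR196C), the phosphoglucose isomerase gene, was at 20388, 22249 and 24701 in Ca and 25244, 21805 and 21771 in N2, against 32097, 33533 and 31965 in ScNI. It fell in both, with log2 −0.54 in Ca and −0.51 in N2 (limma adjusted p = 0.00093 and 0.0012), and in Sc[At], at 29485, 27867 and 25799.8, it did not pass (log2 −0.23). The aldolase gene FBA1 (YKL060C) passed in no comparison. Its values of 223567, 173611 and 105856 in Ca were uneven, with replicate 1, in which chromosome XI is raised, above and replicate 3 below all of ScNI at 180407, 196785 and 183449.

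In lower glycolysis, from triose phosphate to pyruvate, 9 of 9 members fell in Ca, 6 of 9 in N2, 3 of 9 in Sc[At] and none in Sc[Sp] or Sc[Ca], beside 14.2%, 12.6%, 6.82%, 10.9% and 0.0172% of all genes in that order of strains. With the 6 libraries of each pair of strains alone, 3 of 9 fell in Ca, 8 in N2, 5 in Sc[At] and 2 in Sc[Sp], and in Sc[Ca] and Sc[Sp] 1 rose. TDH1 (YJL052W), the least abundant TDH gene, had the largest differences: 1869.9, 2428 and 4032 in Ca and 4723, 2275 and 2267 in N2, against 7441, 11660.1 and 8148 in ScNI. The differences were log2 −1.76 in Ca (SE 0.46, limma adjusted p = 0.012) and −1.62 in N2 (SE 0.46, 0.018). Sc[At] was split, with 7218, 10646 and 2147 in replicates 1, 2 and 3, and did not pass (log2 −0.70). Both Ca replicate 3 and N2 replicate 1 stood above the other libraries of their strain.

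TDH2 (YJR009C) was at 26478, 37037 and 18909 in Ca, 32314, 30880.2 and 30096 in N2 and 38567, 34648 and 35790.4 in Sc[At], against 50338, 56032 and 52091 in ScNI. No library overlapped the wild type. The Ca level was 0.502 times that of ScNI (SE 0.17 on the log2 scale, limma adjusted p = 0.0011), and the differences were log2 −0.76 in N2 (0.0049) and −0.54 in Sc[At] (0.043). The call of TDH2 in Sc[At] was lost whichever library was left out. TDH3 (YGR192C), the main gene of the step, was at 141464, 182119 and 126724 in Ca, against 212426, 211089 and 213796 in ScNI (log2 −0.52, SE 0.12, limma adjusted p = 0.0073). In N2, at 180941, 186091 and 186609, it lay below ScNI in every library but did not pass (log2 −0.20). The share of TDH3 within the step, per coding length, was 83.3, 82.2 and 84.7% in Ca and 83.0, 84.9 and 85.2% in N2, against 78.6, 75.7 and 78.0% in ScNI.

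PGK1 (YCR012W), the phosphoglycerate kinase gene, was lowered in each of these strains. It was at 60456, 72243 and 44779 in Ca, 72696, 68430.2 and 66551 in N2 and 67425, 74637 and 61332 in Sc[At], against 104755, 113139 and 105536 in ScNI. The groups did not overlap, and the differences were log2 −0.89 in Ca (SE 0.13, limma adjusted p = 0.00049), −0.64 in N2 (0.0037) and −0.67 in Sc[At] (0.0058). Sc[Sp] held 89299, 89579.8 and 89878, also below ScNI in each library, but did not pass (log2 −0.27, limma adjusted p = 0.16). GPM1 (YKL152C) was at 86588, 80622 and 68354 in Ca, 82119, 81160.3 and 80463 in N2 and 85349.6, 88257 and 76034 in Sc[At], against 101822, 112100.0 and 103568 in ScNI, and fell in all (log2 −0.44, −0.38 and −0.35). It lies on chromosome XI, and Ca replicate 1, in which that chromosome is raised, was the highest Ca library.

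Both enolase genes fell in Ca and N2. ENO1 (YGR254W) was at 13047, 17835 and 15158 in Ca and 21821, 17629 and 16504 in N2, against 31191, 35002 and 31597 in ScNI, without overlap (Ca log2 −1.10, SE 0.20, limma adjusted p = 0.0017). In N2 the difference was log2 −0.81 (SE 0.20, limma adjusted p = 0.0087). Sc[At] had 26386, 30175 and 14911, low mainly in replicate 3, and did not pass (log2 −0.51). ENO2 (YHR174W) was at 107743, 116698 and 61334 in Ca and 105719.8, 107860.2 and 104306 in N2, against 149859, 148738 and 151055 in ScNI, with log2 −0.71 in Ca and −0.50 in N2 (limma adjusted p = 0.0094 and 0.046). The call of ENO2 in N2 was lost with the replicate block, with chromosome medians subtracted and whichever library was left out. In Sc[At] ENO2 was at 104264, 90144 and 116732, below every ScNI library, and did not pass in limma (log2 −0.54, adjusted p = 0.053) but did in edgeR and DESeq2.

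At the last step of glycolysis, the main pyruvate kinase gene CDC19 (YAL038W) was at 124750.1, 129552 and 85971 in Ca, against 146799.8, 147139 and 146766 in ScNI (log2 −0.40, SE 0.13, limma adjusted p = 0.030). CDC19 was not called in Ca with chromosome medians subtracted. In N2 and Sc[At] it was lower in every library without passing (log2 −0.26 and −0.33). The minor gene PYK2 (YOR347C), which is repressed by glucose, was at 799, 880.1 and 1335 in Ca, against 1669.9, 1658 and 1571 in ScNI (log2 −0.74, SE 0.23, limma adjusted p = 0.025). Sc[Sp] held 2479, 2565 and 2147, above all of ScNI, and its limma adjusted p was 0.096.

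**Figure D2:**
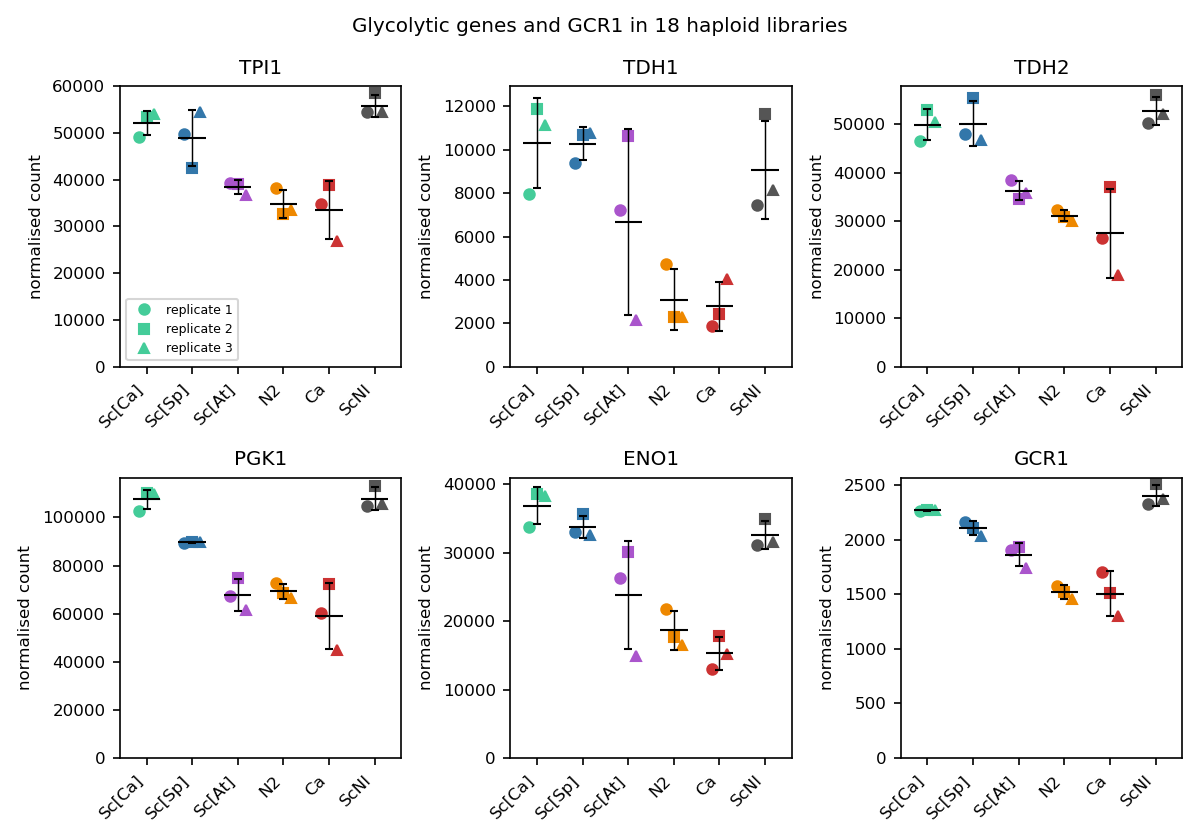
Normalised counts of 5 glycolytic genes and GCR1 in the 18 haploid libraries, by strain; symbols mark replicates 1 to 3, and bars give the mean ± SD (n = 3). The Ca and N2 points of TPI1, TDH2, PGK1, ENO1 and GCR1 all lie below every ScNI point, and Sc[At] replicate 3 is the lowest Sc[At] point for TDH1 (2147) and ENO1 (14911).

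Among the regulators, GCR1 (YPL075W) and TYE7 (YOR344C) each fell in 3 haploid comparisons with ScNI, while GCR2 (YNL199C) passed in 0. GCR1, the activator of glycolytic genes, was at 1708, 1507 and 1298 in Ca, 1580.0, 1524 and 1455 in N2 and 1906, 1934 and 1741 in Sc[At], against 2322, 2508 and 2372 in ScNI. It fell in all without overlap, with log2 −0.68 in Ca (SE 0.09, limma adjusted p = 0.00015), −0.66 in N2 (0.00015) and −0.37 in Sc[At] (0.012). GCR2, the partner of GCR1, was at 1208 to 1732 in Ca and 1317 to 1727 in N2, against 1318 to 1419.8 in ScNI. In Sc[Sp] GCR2 was at 1166, 1143 and 1047, below every ScNI library. It was called lower there with the 6 libraries of Sc[Sp] and ScNI alone, where 47.2% of genes passed. TYE7, a basic helix-loop-helix activator, fell in Sc[Sp], where it was at 945, 1037 and 1094 (log2 −0.68, SE 0.16, limma adjusted p = 0.011). It also fell in N2 at 951, 1293 and 1227 (log2 −0.51) and in Sc[At] at 990.3, 993 and 1514 (log2 −0.52), against 1544, 1713 and 1662 in ScNI. With chromosome medians subtracted, TYE7 was not called in N2. Sc[At] replicate 3 lay just under the wild type for TYE7, far above the other libraries of that strain.

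In the ethanol branch, PDC1 (YLR044C) codes for the main pyruvate decarboxylase. It was at 184466, 158224 and 105433 in Ca, 134103, 167604 and 159662 in N2 and 147739, 130962 and 162653 in Sc[At], against 135202, 129125 and 139661 in ScNI, and passed in no comparison. ADH1 (YOL086C), the main alcohol dehydrogenase gene of fermentation, fell in Ca at 98380.2, 114812 and 56665, against 120733, 124610.4 and 121272 in ScNI (log2 −0.50, SE 0.18, limma adjusted p = 0.041), and replicate 3 was lowest by a wide margin. This call was lost with chromosome medians subtracted. ADH5 (YBR145W), a minor alcohol dehydrogenase gene, was at 625, 630.2 and 637 in Ca and 875, 617 and 586 in N2, against 1127, 1147 and 1105 in ScNI, with log2 −0.84 in Ca and −0.72 in N2 (limma adjusted p = 0.0013 and 0.0028). In Sc[Sp] it rose, at 1439, 1634 and 1769.6 (log2 0.51, SE 0.14, limma adjusted p = 0.022). ADH4 (YGL256W), another alcohol dehydrogenase gene, was at 944, 975 and 1070.0 in Ca, 987, 990.1 and 1036 in N2 and 1051, 1152 and 1005 in Sc[Sp], against 1319.7, 1382 and 1346 in ScNI, and fell in each (log2 −0.44, −0.43 and −0.34).

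Of the minor pyruvate decarboxylase genes, PDC6 (YGR087C) rose in Sc[At] and Ca. It was at 95.6, 98.4 and 91.3 in Sc[At] and 67.6, 43.5 and 163 in Ca, against 35.3, 37.8 and 27.4 in ScNI. In Sc[At] it rose with little spread (log2 1.49, SE 0.33, limma adjusted p = 0.010). The rise in Ca had a wide spread, with replicate 3 highest (log2 1.21, SE 0.33, limma adjusted p = 0.015). The Sc[Sp] libraries, at 59.1, 69.2 and 51.7, lay above ScNI too, with log2 0.82 and a limma adjusted p of 0.088. PDC5 (YLR134W) was at 236, 2341 and 385 in Ca, against 244, 265 and 243 in ScNI. Replicate 2 of Ca held nearly all of that difference, which did not pass in limma (log2 1.25, adjusted p = 0.088) but did in edgeR and DESeq2. In N2 PDC5 was at 242, 188 and 157, below every ScNI library, and did not pass (log2 −0.38).

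Glycerol is made from a glycolytic intermediate by glycerol-3-phosphate dehydrogenase and a phosphatase. GPD1 (YDL022W), the dehydrogenase gene that responds to osmotic stress, was at 3855, 3623 and 3087 in Ca and 6167, 4067 and 3638 in N2, against 6969, 7219 and 7021 in ScNI. It fell without overlap in Ca (log2 −1.01, SE 0.22, limma adjusted p = 0.0050) and in N2 (log2 −0.65, SE 0.22, limma adjusted p = 0.039). The call of GPD1 in N2 was lost with chromosome medians subtracted. Sc[At] replicate 3, at 3477, was as low as Ca, while replicates 1 and 2 were at 6032 and 7392. GPD2 (YOL059W), GPP1 (YIL053W) and GPP2 (YER062C) passed in no comparison. GPD1 made up 44.5, 42.2 and 49.5% of the GPD transcripts per coding length in Ca and 59.9, 47.3 and 44.3% in N2, against 63.2, 64.5 and 63.2% in ScNI. GPP2, the phosphatase gene induced by osmotic stress, was at 629, 542 and 2113 in Ca, 2004, 2199.6 and 1168 in Sc[At] and 1529, 1747 and 1637 in Sc[Sp], against 969, 1024 and 969.5 in ScNI, so that Ca replicate 3 stood above and the other Ca libraries below the wild type.

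In the acetate branch, both aldehyde dehydrogenase genes rose in Sc[Sp] and N2. ALD6 (YPL061W), the cytosolic acetaldehyde dehydrogenase gene, was at 46186, 44799 and 36714 in Sc[Sp] and 40482, 26179 and 30588 in N2, against 23274, 12852 and 15498 in ScNI. It rose without overlap in Sc[Sp] (log2 1.34, SE 0.22, limma adjusted p = 0.0012) and in N2 (log2 0.94, SE 0.22, limma adjusted p = 0.0067). ALD4 (YOR374W), the main mitochondrial isozyme, was at 27008, 27149.6 and 21587 in Sc[Sp] and 21952, 13041 and 15501 in N2, against 9847, 6402 and 6975 in ScNI, and rose as well (log2 1.72, SE 0.23, limma adjusted p = 0.00042 in Sc[Sp]). In N2 its difference was log2 1.11 (SE 0.23, limma adjusted p = 0.0038). Ca did not follow, with ALD6 at 19583, 21269.7 and 14535 and ALD4 at 8781, 10075 and 7596, and neither passed there. ACS2 (YLR153C), which makes acetyl-CoA from acetate, was at 4198, 4248 and 4705 in Ca and 4549, 4494 and 4195 in N2, against 5702, 5388 and 5909.6 in ScNI (log2 −0.37 and −0.36, limma adjusted p = 0.0042 and 0.0046).

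Of the remaining members, the butanediol dehydrogenase gene BDH1 (YAL060W) and its neighbour and paralogue BDH2 (YAL061W) fell in Ca. BDH2 was at 1307, 1378 and 1164 in Ca, 4033, 1922 and 1804 in N2 and 2497, 3420.1 and 1229.9 in Sc[At], against 3647, 4209 and 3170.3 in ScNI. The Ca libraries all lay below ScNI (log2 −1.51, SE 0.32, limma adjusted p = 0.0042), while N2 and Sc[At] overlapped it through N2 replicate 1 and Sc[At] replicate 2. BDH1 was at 1699.9, 1858 and 1913 in Ca, against 2762, 3290.2 and 2563 in ScNI (log2 −0.65, SE 0.22, limma adjusted p = 0.034). This call of BDH1 was lost with chromosome medians subtracted. The PFK26 (YIL107C) and PFK27 (YOL136C) genes, whose products make the phosphofructokinase activator fructose 2,6-bisphosphate, passed in no haploid comparison. PFK26 was at 1856, 1935 and 1685 in Sc[Sp] and 1761, 1641 and 1416 in Sc[At], above every ScNI library at 1131, 1224 and 1063 (log2 0.68 and 0.49, limma adjusted p = 0.055 and 0.18).

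**Figure D3:**
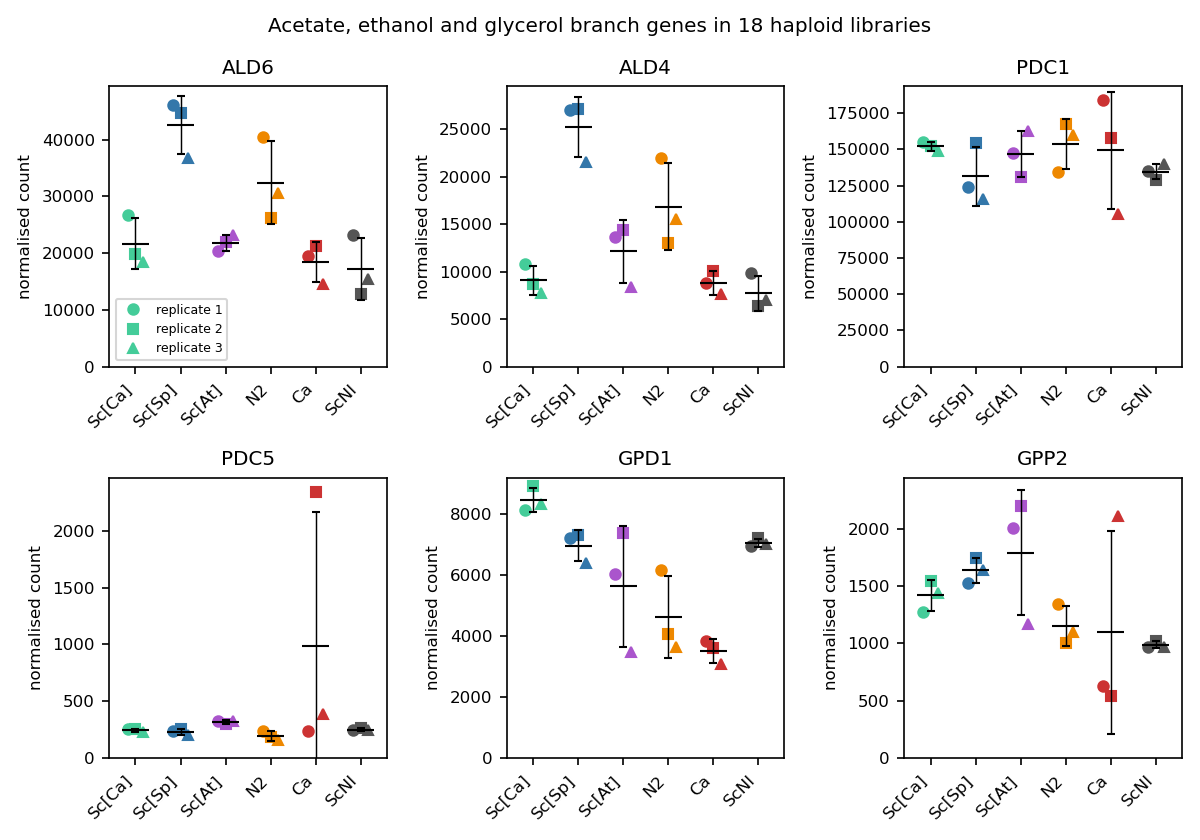
Normalised counts of 6 genes of the acetate, ethanol and glycerol branches in the 18 haploid libraries, drawn as in the plot of glycolytic genes. ALD6 and ALD4 are highest in Sc[Sp], PDC1 passes in no strain, PDC5 is high in Ca replicate 2 alone (2341), and GPP2 separates Ca replicate 3 (2113) from the other Ca libraries.

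In a strain of 3 libraries each library is the lowest or the highest for many genes. The share of all genes for which a library was so was not computed. The counts below therefore cannot be read as particular to the members. Some libraries were lowest or highest for nearly all members. Wild-type libraries were among these: ScNI replicate 2 and Sc/Sc replicate 3 were lowest or highest for 32 members each. N2/Ca replicate 1 was so for 32 as well. Sc[At] replicate 3 was the lowest Sc[At] library for 19 members, among them TDH1, ENO1, GPD1 and BDH2, and the highest for 14, among them HXK2, TYE7 and GPP1. N2 replicate 1, in which chromosomes VI and XIII are raised less, was the highest N2 library for 22 members and the lowest for 11. Ca replicate 3, in which they are not raised, was the lowest Ca library for 22 members, among them PGK1, PDC1 and ADH1, and the highest for 10, among them GPP2 and PFK26.

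**Figure D4:**
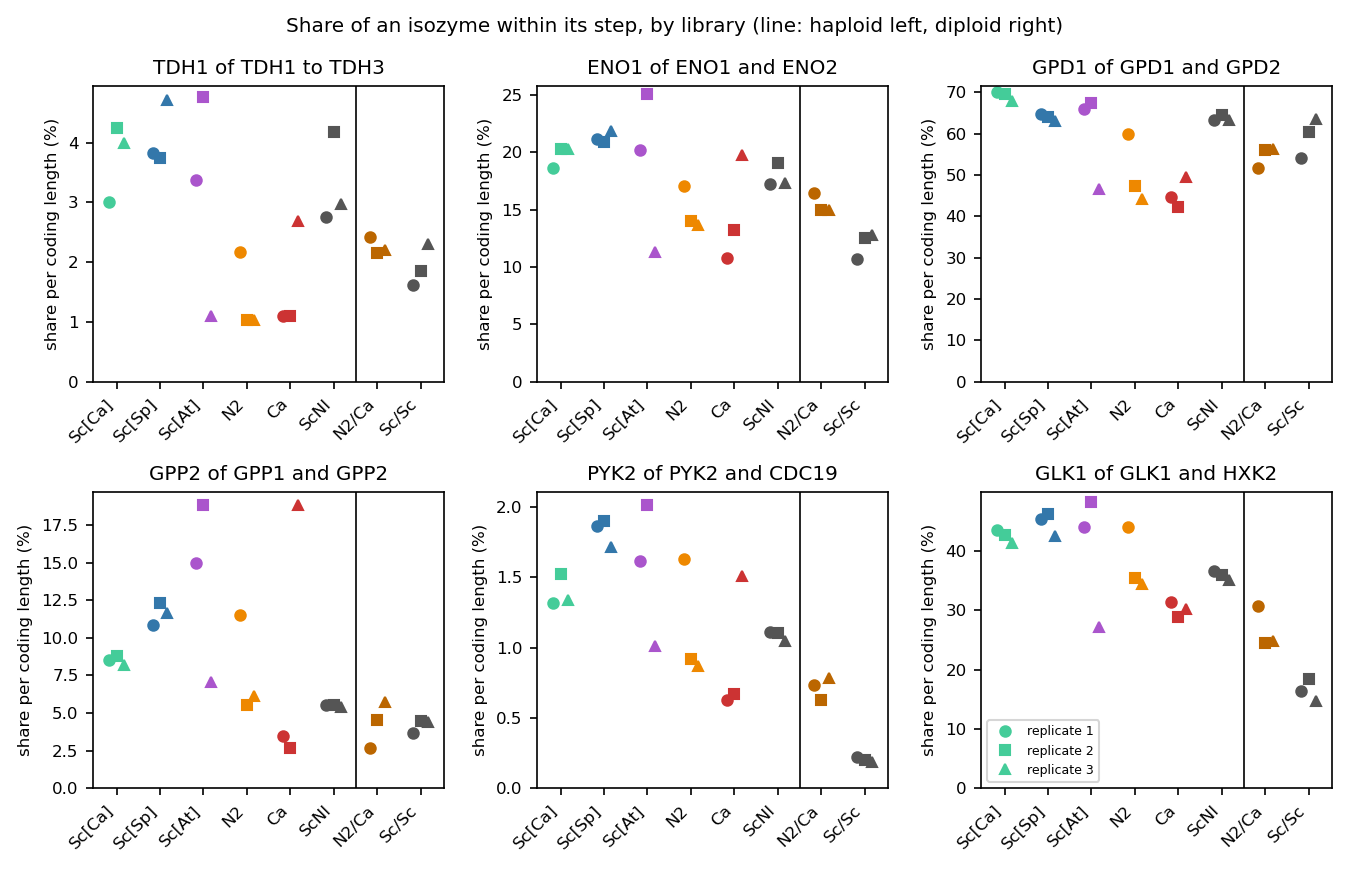
Share of 6 isozyme genes within their step, per coding length, in every library, with haploid strains left of the line and diploid strains right of it. GPD1 makes up 44.5, 42.2 and 49.5% of its step in Ca, against 63.2, 64.5 and 63.2% in ScNI, and the PYK2 share is higher in N2/Ca than in Sc/Sc in every library.

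How far each haploid result rests on single libraries was examined by leaving out each of the 6 libraries of a comparison in turn. In Ca, 17 of the 23 calls held throughout, while those of TDH1, CDC19, PYK2, PDC6, ADH1 and BDH1 were lost in at least 1 fit. The count that fell ranged from 17 to 24, and the count that rose was 5 without Ca replicate 3 and 0 without ScNI replicate 3. Of all genes, 46.2% passed without Ca replicate 3, where 24 members fell, against 25.5% or less without any other library. In the MATa libraries alone, 8 members fell and 1 rose in Ca, where 4.53% of genes passed, with a median of −0.51. In N2, 13 of 18 calls held throughout, and those of TDH1, GPM1, ENO2, TYE7 and GPD1 did not. The share of all genes that passed there ran from 14.4% without N2 replicate 3 to 37.4% without N2 replicate 1. In Sc[At] 3 of 9 held (HXK2, PGK1 and PDC6), while those of PFK1, TPI1, TDH2, GPM1, GCR1 and TYE7 were lost in at least 1 fit. The count that fell there ranged from 2 to 8: 2 without ScNI replicate 2, and 4 without Sc[At] replicate 1, ScNI replicate 1 or ScNI replicate 3. Without Sc[At] replicate 3, 8 fell and 2 rose. Of all genes, 17% passed in that fit, against 5.27% to 9.75% without any other library of this comparison. In Sc[Sp], 4 of 5 held, and ADH5 was lost without Sc[Sp] replicate 2 or 3 or any ScNI replicate. Of all genes, 7.54% (without ScNI replicate 3) to 13.8% (without Sc[Sp] replicate 3) passed there. In the MATa libraries alone no member passed in N2 (median −0.33, 1.77% of genes called), in Sc[At] (median −0.31, 0.413%) or in Sc[Sp] (median −0.07, 0.999%).

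Libraries of the same replicate number deviated alike from their strain means in the comparisons of Sc[Ca], Sc[Sp], Sc[At] and N2 with ScNI and in that of Sc[At] with Sc[Sp]. Replicate 2 differs in mating type in every haploid strain, and whether the numbers pair the libraries was not tested further. The replicate block changed the call of 2 members in these comparisons: ENO2 was no longer called in N2, where 15 members then fell, and ALD4 was called in Sc[At], where 2 then rose. With N2 and Ca left out of the fit, a choice made after the data were seen, 17 members fell and 5 rose in Sc[At], and 8 fell and 9 rose in Sc[Sp], where 31.1% and 41.7% of genes passed. For Sc[Ca], a fit on the 6 libraries of Sc[Ca] and ScNI alone gave 6 members that rose (GLK1, PYK2, PDC1, ADH5, GPD1 and GPP2) and TYE7 that fell, where 7.89% of genes rose and 8.74% fell. In that strain GPP2 was at 1275, 1543 and 1439.6, against 969, 1024 and 969.5 in ScNI.

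The direct test of Sc[At] against Sc[Sp] gave 6 members lower and none higher, where 5.25% of genes were lower and 8.21% higher. ALD4 was at 13675, 14359 and 8342 in Sc[At], against 27008, 27149.6 and 21587 in Sc[Sp] (log2 −1.09, SE 0.23, limma adjusted p = 0.011). ALD6 was at 20347, 21922 and 23232 in Sc[At], against 46186, 44799 and 36714 in Sc[Sp] (log2 −0.96, SE 0.22, limma adjusted p = 0.014). For both aldehyde dehydrogenase genes Sc[At] lay closer to ScNI than Sc[Sp] did. HXK2 was at 22535, 21090.2 and 25468 in Sc[At], against 33611, 33286 and 33216 in Sc[Sp] (log2 −0.54, SE 0.10, limma adjusted p = 0.0070). GLK1, BDH1 and ADH5 were lower as well, with log2 −0.85, −0.68 and −0.66, at limma adjusted p of 0.033, 0.049 and 0.012. Each of the 6 lay below Sc[Sp] in every library. Without Sc[At] replicate 3, HXK2 and ALD6 still passed and the other 4 did not, without Sc[Sp] replicate 3 the count was 3, without Sc[At] replicate 2 it was 9, and in the MATa libraries alone none did. Of all genes, 3.20%, 4.12%, 15.7% and 0.241% passed in these fits, in that order.

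Ca and N2 did not differ in any member by limma or edgeR, where 0.413% of genes were higher and 0.103% lower in Ca by limma. An unadjusted p under 0.05 in limma was reached by 7 members, and the share of all genes at that level was not computed. DESeq2 called 3, where 1.93% of genes passed: ALD6 and ALD4 lower and PDC5 higher in Ca. ALD6 was at 19583, 21269.7 and 14535 in Ca, against 40482, 26179 and 30588 in N2, and ALD4 at 8781, 10075 and 7596 in Ca, against 21952, 13041 and 15501 in N2. Both lay lower in every Ca library, with log2 −0.81 and −0.91, with limma adjusted p of 0.15 and 0.13.

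In the diploid N2/Ca, 4 members fell and 3 rose against Sc/Sc, where 5.76% of 5727 genes fell and 8.59% rose, and the median was −0.17. PGK1 was at 86159, 82685 and 79896 in N2/Ca, against 112577, 140207 and 142233 in Sc/Sc (log2 −0.66, SE 0.15, limma adjusted p = 0.027). ADH1 was at 123589, 110116 and 104345 in N2/Ca, against 147429, 175477 and 205165 in Sc/Sc (log2 −0.63, SE 0.18, limma adjusted p = 0.048). ENO2 was at 164050.3, 162118 and 144374 in N2/Ca, against 210812, 242095 and 258107 in Sc/Sc (log2 −0.59, SE 0.17, limma adjusted p = 0.048). These groups did not overlap, and Sc/Sc replicate 1 was the lowest wild-type library for each. BDH1 was at 1901, 1659 and 1695 in N2/Ca, against 2703, 2995 and 3399.5 in Sc/Sc (log2 −0.79, SE 0.12, limma adjusted p = 0.0053).

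The members that rose in N2/Ca were ALD4, PYK2 and PFK26. ALD4 was at 7988, 3537 and 4319.8 in N2/Ca, against 1146, 1824 and 749 in Sc/Sc (log2 2.09, SE 0.37, limma adjusted p = 0.0093), and its share of ALD4 and ALD6 per coding length was 31.4, 29.7 and 29.2% in N2/Ca, against 7.82, 9.04 and 6.89% in Sc/Sc. PYK2 was at 1115, 856 and 989 in N2/Ca, against 379, 424 and 324 in Sc/Sc (log2 1.39, SE 0.15, limma adjusted p = 0.0014). PFK26 was at 976, 954 and 996 in N2/Ca, against 677, 644 and 642 in Sc/Sc (log2 0.58, SE 0.10, limma adjusted p = 0.0085). PDC5 was at 176, 208 and 199 in N2/Ca, against 246, 253 and 283 in Sc/Sc, lower in every library, and passed in DESeq2 but not in limma (log2 −0.42, adjusted p = 0.077). The other 28 members, PDC5 included, did not pass in limma and ranged from log2 −0.66 for TPI1 to 0.61 for GLK1. GCR1, lower in the haploids N2 and Ca, was at 2328, 2224 and 2157 in N2/Ca, against 1946, 1891 and 1602 in Sc/Sc, so it was higher in every N2/Ca library without passing (log2 0.31, limma adjusted p = 0.094). The calls of PYK2, ALD4 and BDH1 held whichever library was left out, while the number that fell was 1 without any 1 N2/Ca replicate or without Sc/Sc replicate 2, 6 without Sc/Sc replicate 1 and 10 without Sc/Sc replicate 3. Of all genes, 23.8% passed without Sc/Sc replicate 3 and 11.7% without Sc/Sc replicate 1, against 8.54% or less without any other library. DESeq2 gave 11 that fell and 5 that rose, where 23.5% of genes passed.

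**Figure D5:**
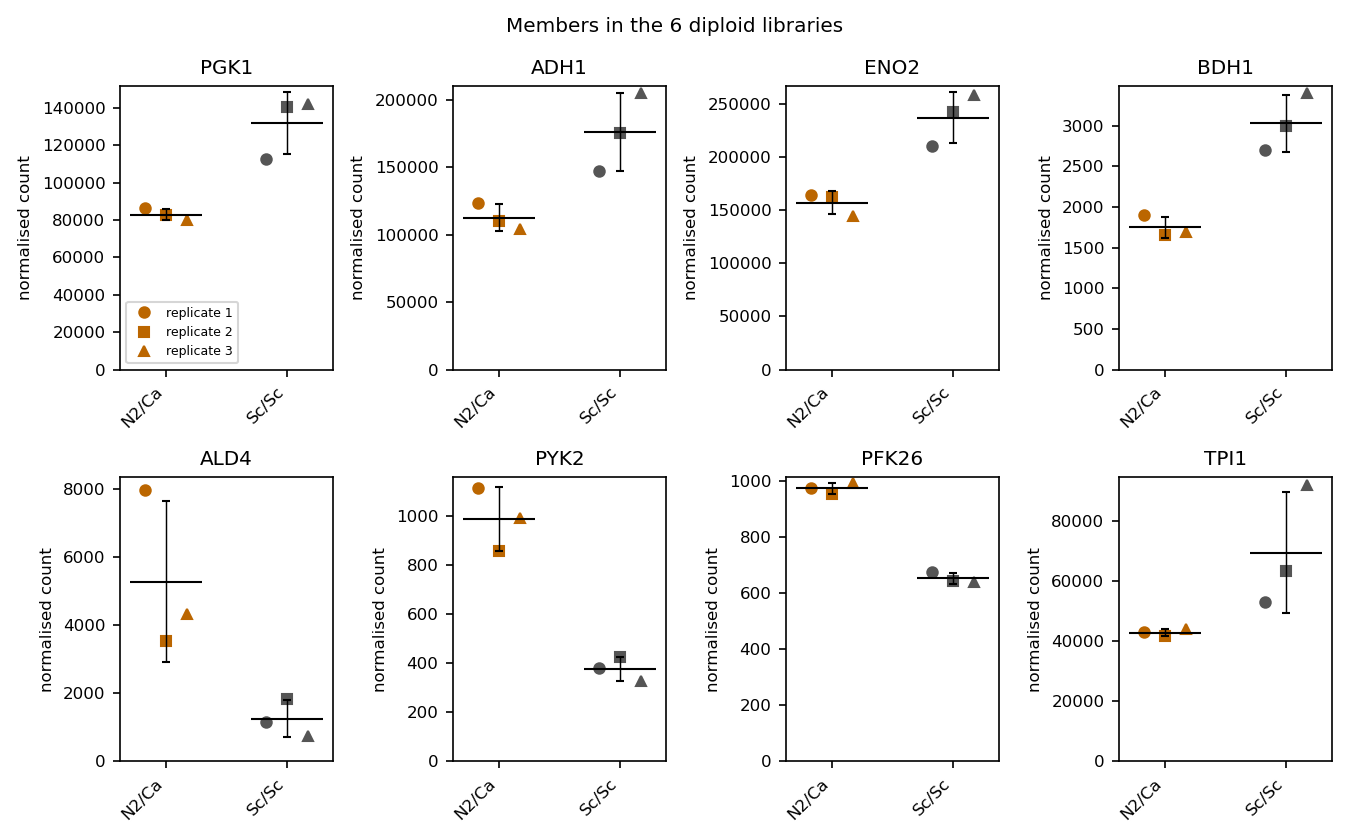
Normalised counts of 8 members in the 6 diploid libraries, with bars for mean ± SD (n = 3). N2/Ca lies below Sc/Sc for PGK1, ADH1, ENO2 and BDH1 and above it for ALD4, PYK2 and PFK26, and TPI1, whose Sc/Sc values run from 53036 to 92119, did not pass.

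A further 35 genes of these pathways that are not members, among them glucose-repressed isozymes and enzymes of gluconeogenesis and glycerol use, were counted in the same fits. In Sc[Sp], 13 rose and 1 fell, where 10.1% of all genes rose and 10.9% fell, and in Sc[At] 10 rose and 1 fell, where 8.44% rose and 6.82% fell. In N2 11 rose and 3 fell, where 16.5% rose and 12.6% fell, and in Ca 8 rose and 4 fell, where 16.0% rose and 14.2% fell. Of the 11 among them on chromosomes VI and XIII, 9 rose in N2 and 5 in Ca, where those chromosomes are raised. Of the other 24, 2 rose and 3 fell in N2, and 3 rose and 4 fell in Ca. The shares of all genes include chromosomes VI and XIII, and no share without them was computed, so these counts have no like share beside them. GUT2, which oxidises glycerol 3-phosphate in mitochondria, averaged 4459.6 ± 836 in Sc[Sp], against 1537 ± 200.4 in ScNI (mean ± SD, n = 3; log2 1.53, limma adjusted p = 0.00014). HXK1, a hexokinase gene repressed by glucose and on chromosome VI, averaged 42043 ± 3642 in Sc[Sp], against 14221 ± 1662 in ScNI (log2 1.57). ADH2, which oxidises ethanol and lies on chromosome XIII, averaged 526 ± 122 in Sc[At] and 681 ± 53.0 in Ca, against 237 ± 20.9 in ScNI (log2 1.13 and 1.52). PCK1, the phosphoenolpyruvate carboxykinase gene of gluconeogenesis, averaged 304 ± 47.5 in Sc[At], against 136 ± 31.2 in ScNI (log2 1.17, limma adjusted p = 0.017). Others with large differences were DAK2, a dihydroxyacetone kinase gene, in Sc[Sp] (log2 1.44), the aldehyde dehydrogenase gene ALD3 in N2 (log2 1.54), where HXK1 and ADH2 were also higher (log2 1.90 and 1.39) and all 3 lie on the raised chromosomes, and, in Ca, PCK1 (log2 1.08) and the glucokinase paralogue EMI2 (log2 −0.96). In Sc[Ca] 0 of these genes passed in the fit of all haploid libraries, with 2 at an unadjusted p under 0.05, a level at which the share of all genes was not computed. With the 6 libraries of Sc[Ca] and ScNI alone 7 rose and 0 fell, where 7.89% of all genes rose and 8.74% fell. In N2/Ca 3 rose and 7 fell, where 8.59% of all genes rose and 5.76% fell, with GUT2 higher (log2 1.96) and both MAE1, the malic enzyme gene, and GPM2, a paralogue of GPM1, lower (log2 −1.72 and −0.94). In Sc[At] against Sc[Sp], 2 of them passed, EMI2 and GUT2, both lower (log2 −1.09 and −0.92).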

How the data were processed

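Poly(A) RNA was sequenced as stranded libraries of 1x50 bases on an Illumina HiSeq, per the labels' protocols. Per the submitters' processing notes, HISAT2 2.2.1 was used with the R64 genome and DESeq2 1.28.0 with the counts. They also name Trimmomatic 0.39, bcl2fastq 2.20.0.422 and FastQC 0.11.9. The counter, its strand setting and the annotation are not stated there or in the labels. The deposited values are a signal: gene counts that the authors divided by size factors. Dividing by the value of 1 read gave whole reads for 100% of values in all 24 libraries, within 0.001 reads. The columns named N19_Ca were taken as N2/Ca, since no other strain remained. Groups were taken from the labels. The 5 rows of introduced actins were left out of the tests, and genes with a mean of 10 or more normalised counts were kept.

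Values were tested as log2(value + 1) with limma 3.58.1 (trend; R 4.3.3), in 1 fit of all 18 haploid or all 6 diploid libraries, with Benjamini-Hochberg adjustment over the 5808 and 5727 genes tested. A fold change on this scale understates the change of low genes. Alternatives were edgeR 4.0.16 and DESeq2 1.42.0 on the recovered reads, another scaling, pseudocount 10, no filter, the replicate block, libraries left out in turn, 6 libraries only and chromosome medians subtracted. The fits without N2 and Ca and on MATa libraries only were chosen after seeing the data. Code was tested on simulated data. Members and lists were chosen with earlier results of these data known. Members were given with every library's value where they passed, up to the 12 with the largest change per comparison, and the others by range or where a contrast needed them. Other pathway genes were named as up to 3 with the largest change among those that passed in a comparison. The lowest same-number correlation of deviations was 0.31 to 0.50 in the comparisons of Sc[Ca], Sc[Sp], Sc[At] and N2 with ScNI and of Sc[At] with Sc[Sp]. It was 0.06 for Ca, −0.31 for Ca with N2 and −0.07 in the diploids. Correlations between different numbers were not computed. Replicate 2 differs in mating type in every haploid strain, so the check cannot show that the numbers pair the libraries. Counts per gene of replicates differed by more than sampling noise (chi-square per gene 4.39 to 186), so each library was counted as 1 sample. Of the entries, 8 haploid and 4 diploid ones had no match in R64.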

Additional observations from a re-analysis of the deposited data

Results flagged for a closer look

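For 6 members the response of Sc[At] and that of Sc[Sp] differed in a direct test of the strains (limma on all 18 haploid libraries, adjusted p under 0.05). The log2 difference of Sc[At] from Sc[Sp] was −0.54 for HXK2, −0.85 for GLK1, −0.66 for ADH5, −0.96 for ALD6, −1.09 for ALD4 and −0.68 for BDH1. HXK2 averaged 23031 ± 2230.4 normalised counts in Sc[At], against 33371 ± 211 in Sc[Sp] (SD, n = 3 each), with ScNI between at 31407 ± 627 but close to Sc[Sp]. ALD4 and ALD6 were above ScNI in both strains on average and higher in Sc[Sp]. ADH5 averaged 1031 ± 213 in Sc[At], against 1614 ± 166 in Sc[Sp]. GLK1 and BDH1 were uneven in Sc[At], where replicate 3 lay far below replicates 1 and 2. Without that library the log2 differences were −0.53 for GLK1, −0.40 for BDH1, −0.56 for ADH5 and −0.84 for ALD4, which no longer passed, while HXK2, at −0.61, and ALD6 still did, where 3.20% of all genes passed in place of 13.5%.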

How the results depend on the processing

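Over 68 called pairs of a member and a comparison and their alternatives, 835 of 1006 values kept direction and call, 171 kept direction without passing and 0 reversed, and 9 pairs passed in every alternative. Counts of members are given as higher and lower. DESeq2 gave 6 higher in Sc[Sp] (27.6% of genes passed), 2 and 13 in Sc[At] (20.9%) and 2 higher in Ca (37.6%). It gave 5 and 11 in N2/Ca (23.5%), 0 and 11 in Sc[At] against Sc[Sp] (19.4%), and 1 and 2 in Ca against N2 (1.93%). In edgeR, 2 were higher in Ca (32.8%). Fits on the 6 libraries of a pair of strains gave 6 and 1 in Sc[Ca] (16.6% of genes passed), 9 and 8 in Sc[Sp] (47.2%), 4 and 11 in Sc[At] (19.7%), and 2 and 5 in Sc[At] against Sc[Sp] (11.3%). In such fits N2 had 2 and 20 (31.1%), while Ca had 0 and 14 (12.8%). Without N2 and Ca, the counts were 9 and 8 in Sc[Sp] (41.7%), 5 and 17 in Sc[At] (31.1%), and 2 and 16 in Sc[At] against Sc[Sp] (31.4%). The MATa libraries alone gave 0 and 0 in Sc[Sp], Sc[At], N2 and Sc[At] against Sc[Sp], with the same signs of the median, and 8 lower in Ca. This fit has 12 libraries, and 0.999%, 0.413%, 1.77%, 0.241% and 4.53% of genes passed in that order. The causes of the other shifts were not tested.

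The replicate block gave 2 higher in Sc[At] (12.7% of genes passed) and 1 lower in N2/Ca (15.4%), where same-number libraries did not all deviate alike. In the comparisons where they did, it changed no other call than ENO2 in N2 and ALD4 in Sc[At]. Leaving out 1 replicate at a time gave 2 to 3 higher in Sc[Sp], and 1 to 2 higher and 2 to 8 lower in Sc[At]. It gave 11 to 17 lower in N2, and 0 to 5 higher and 17 to 24 lower in Ca. In N2/Ca it gave 2 to 3 higher and 1 to 10 lower. It gave 2 to 9 lower in Sc[At] against Sc[Sp], and 0 to 1 in each direction in Ca against N2. The share of all genes that passed varied with the library left out as well. With each chromosome's median subtracted, 13 fell and 2 rose in N2 (20.8% of genes passed), 19 fell and 1 rose in Ca (25.8%), and 3 fell and 3 rose in N2/Ca (16.4%). The calls lost were ENO2, TYE7 and GPD1 in N2, CDC19, ADH1 and BDH1 in Ca, and ENO2 and ADH1 in N2/Ca, where GPM1 was gained. At this depth every member but PDC6 had over 100 normalised counts in each library.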
